A study of Mus musculus with 9 samples.

Results

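The 10 genes for the ABC export pumps of the liver were followed in mouse livers that lacked the autophagy gene Atg7 in hepatocytes. They were Abcc1, Abcc2, Abcc3, Abcc4, Abcc5, Abcc6, Abcb1a, Abcb1b, Abcb4 and Abcg2, chosen by symbol, and all 10 were found among the 24411 genes of the deposited table. Enough counts for a test were found for 9 of them, all but Abcb1b.

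Poly(A) RNA was sequenced from whole livers of mice at 3 months of age, with 3 mice in each of 3 groups. The cont. mice carried floxed Atg7 alleles (Atg7flox/flox) and no Cre. The Atg7-KO mice carried the same alleles and Alb-Cre, a Cre recombinase under the albumin promoter, with which the study deleted Atg7 in hepatocytes. Whether other liver cells kept Atg7 was not measured here. The third group, called S351A here, was Atg7flox/flox;Alb-Cre with the p62S351A allele on both copies of p62, in which a serine in the KEAP1-binding part of the protein is replaced by alanine. The study used this allele to ask what the binding of KEAP1 to p62 contributes when autophagy is lost. Floxed Atg7 was thus shared by all 9 mice, and S351A without loss of Atg7 was not analysed here. The genotype entries of the S351A livers numbered 2 and 3 name another residue on the second p62 copy, and the titles were followed.

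Library totals ranged from 713841 to 15426600 counts, and each S351A library, at 713841 to 792372, was smaller than all 6 others, so the p62 allele and low depth cannot be told apart. A level of 3 counts, taken as the floor of a library, lay between 0.269 and 3.73 CPM (counts relative to library size, on the TMM scale, in which libraries are scaled by the bulk of their genes). Floors cover counting error only. Atg7 read 42.4 to 57.8 CPM in the cont. livers, 28.0 to 30.2 CPM in the Atg7-KO livers and 21.8 to 24.8 CPM in the S351A livers. By Xist and Y-linked genes, cont. livers 1 and 3, Atg7-KO liver 1 and S351A liver 1 were male and the others female. In bulk liver, fewer cells of a type and less RNA per cell cannot be told apart.

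Hepatocytes are polarised, and their pumps are sorted to opposite faces. ABC transporters use ATP to drive their cargo out of the cell. At the canalicular face, toward bile, ABCC2 exports conjugated bilirubin and glutathione, ABCB4 moves phosphatidylcholine into the outer leaflet, ABCG2 exports sulfate conjugates and urate, and the P-glycoproteins encoded by Abcb1a and Abcb1b export hydrophobic drugs. At the basolateral face, toward blood, ABCC3 exports glucuronides and bile acids, ABCC4 exports bile acids and cyclic nucleotides, ABCC1 exports glutathione conjugates, ABCC5 exports cyclic nucleotides, and ABCC6 is needed for release of ATP and so for plasma pyrophosphate. Several ABCC genes are known targets of NRF2, the transcription factor that KEAP1 holds in check and that binds the antioxidant response element.

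Loss of Atg7 changed 5 of the 9 tested pumps, with 4 called higher and 1 lower against cont., where 19.9% of all tested genes were called higher and 18.1% lower. Abcc4, Abcb1a, Abcc1 and Abcc5 rose, by between 4.44-fold and 45.7-fold, and Abcc6 fell to 0.239 of its control level. The canalicular pumps Abcc2 and Abcb4 and the basolateral pump Abcc3 were among the most abundant of the 10 and did not pass the test. In S351A livers the same 4 genes rose against cont. and Abcc6 fell, where 15.6% of all genes were called higher and 13.0% lower. Abcg2 was also called lower there, with overlapping groups and a call that was lost under 13 of 19 alternative settings. No pump passed the test between S351A and Atg7-KO. Abcc4 was lower in each S351A liver than in each Atg7-KO liver, at 0.495 of the Atg7-KO level, without passing the correction for multiple tests.

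**Figure D1:**
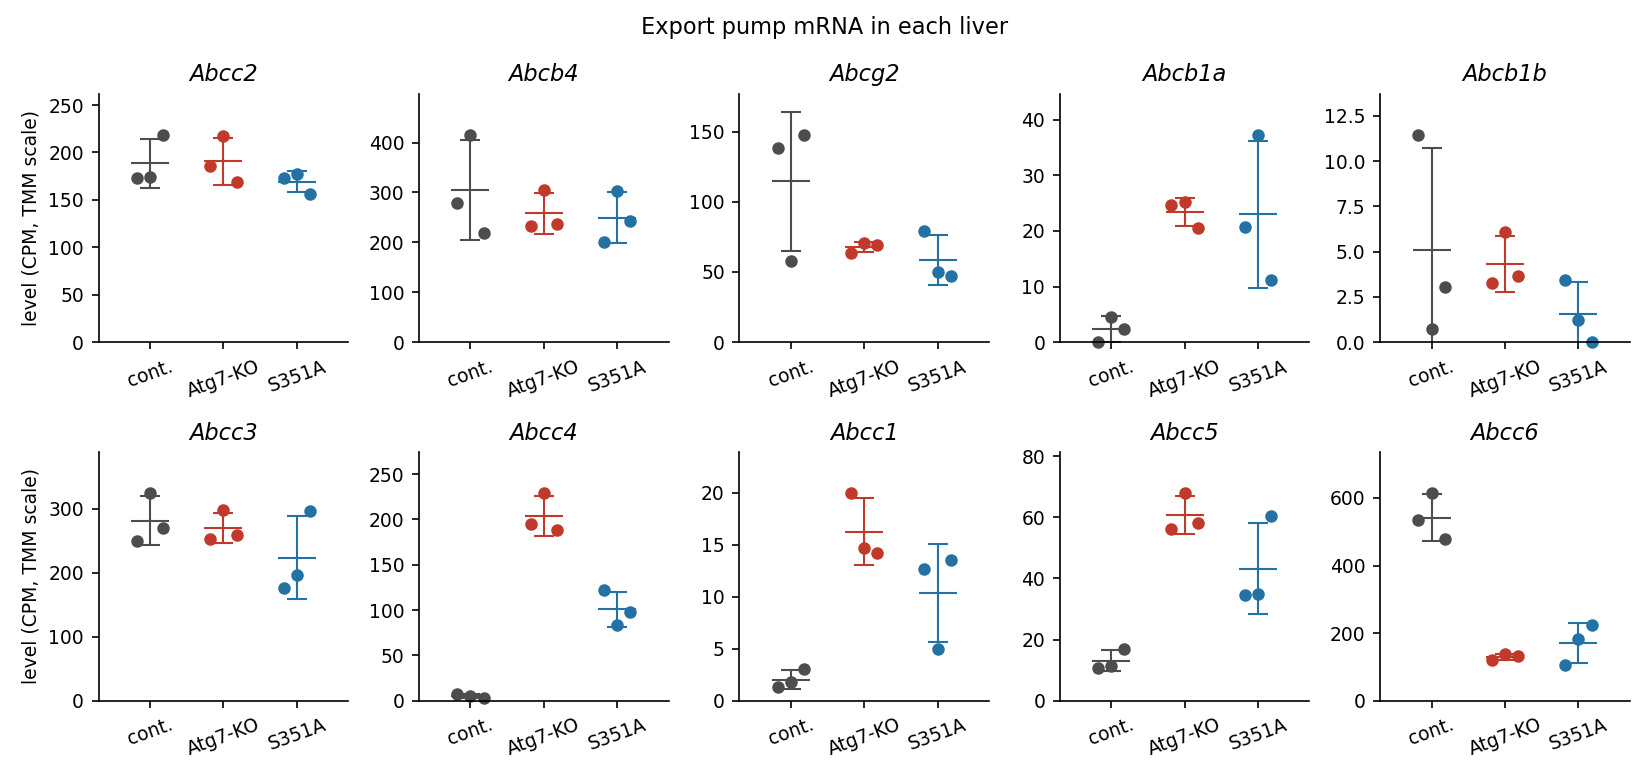
Level of each of the 10 pump genes in each liver (CPM on the TMM scale, linear axes from 0), with points for livers in the order 1 to 3, horizontal marks for group means and bars for SD (n = 3, cut at 0). Abcc4 stays between 2.60 and 7.63 CPM in the cont. livers and reaches 188 to 229 CPM in the Atg7-KO livers, with S351A at 83.2 to 122 CPM between them.

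The stretch upstream of the start site is shown for 3 genes that set a changed pump beside one without a call: Abcc4, which rose most, Abcc2, which did not pass the test, and Abcc5, which rose. The sequences are from RefSeq on GRCm38.p6, 5′ to 3′ on the gene's strand, and cover the 250 bases before the annotated start. Capitals mark the core of the antioxidant response element, searched as TGACNNNGC on both strands. The search used these bases and the 50 that follow.
Abcc4, chr14:118706220-118706469, minus strand: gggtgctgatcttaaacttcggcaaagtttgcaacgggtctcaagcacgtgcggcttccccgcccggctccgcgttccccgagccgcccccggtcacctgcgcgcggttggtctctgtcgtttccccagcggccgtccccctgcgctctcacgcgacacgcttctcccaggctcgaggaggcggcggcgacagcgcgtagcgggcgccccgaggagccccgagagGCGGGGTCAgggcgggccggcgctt
Abcc4, second start, chr14:118676932-118677181, minus strand: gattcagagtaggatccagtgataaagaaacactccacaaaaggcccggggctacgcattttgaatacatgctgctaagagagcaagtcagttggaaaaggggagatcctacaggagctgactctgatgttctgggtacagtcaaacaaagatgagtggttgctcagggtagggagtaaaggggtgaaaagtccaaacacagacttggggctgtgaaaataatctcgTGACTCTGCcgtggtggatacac
Abcc2, chr19:43782058-43782307, plus strand: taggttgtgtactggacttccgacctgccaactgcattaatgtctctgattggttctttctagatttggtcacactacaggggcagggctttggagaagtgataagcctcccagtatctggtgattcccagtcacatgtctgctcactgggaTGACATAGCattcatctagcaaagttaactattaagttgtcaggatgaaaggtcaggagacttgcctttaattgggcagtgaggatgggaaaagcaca
Abcc5, chr16:20426395-20426644, minus strand: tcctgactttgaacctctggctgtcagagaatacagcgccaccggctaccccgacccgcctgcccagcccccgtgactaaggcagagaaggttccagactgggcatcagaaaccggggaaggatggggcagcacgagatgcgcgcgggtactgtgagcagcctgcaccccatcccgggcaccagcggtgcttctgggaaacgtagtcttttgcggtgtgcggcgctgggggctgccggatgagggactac
The core began 25 bases before the first Abcc4 start, matched on the opposite strand and printed here on the gene's strand as GCGGGGTCA, and 23 bases before the second, as TGACTCTGC. In Abcc2 it began 98 bases before the start, as TGACATAGC. Abcc5 had no match in this window. Of the 10 member promoters found, which belong to 7 genes, 4 promoters of 3 genes held a match, the other gene being Abcb1a. Over all 32851 promoters of the same length, 12.4% held one. Abcc4, with a match at both starts, rose, and Abcc2, with a match, did not pass the test. A match is a stretch of letters and was not tested as a site.

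Abcc4 lies on chr14:118482692-118706219 (minus strand, mm10, GENCODE M21), a protein-coding gene overlapped by Mir6391, Gm23302 and Gm49033. It read 7.63, 5.28 and 2.60 CPM in cont. livers 1, 2 and 3, from 12, 15 and 29 counts. It was 195, 229 and 188 CPM in the Atg7-KO livers and 122, 83.2 and 97.5 CPM in the S351A livers. None of the 3 groups overlapped with another. The rise in Atg7-KO against cont. was 45.7-fold, or 5.52 on the log2 scale (SE 0.36, adjusted p = 1.23e-06 by edgeR's quasi-likelihood test), and that in S351A against cont. was 22.6-fold (4.50, SE 0.35, adjusted p = 9.52e-06). Both comparisons use the same cont. livers. Genes that overlap Abcc4, and likewise Gm23116 in Abcc1, Gm45674 in Abcc6, Gm42684 and Gm42686 in Abcb1a and Gm17936 in Abcb4, can share reads with the pump, since the strand setting is not given in the sources used here. Of all pumps it had the smallest adjusted p for any difference among the 3 groups, at 4.87e-06 by edgeR.

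Abcc1 (chr16:14361558-14475737, plus strand) encodes a pump that mature hepatocytes hold at low levels. It read 1.27, 1.76 and 3.05 CPM in the cont. livers, from only 2, 5 and 34 counts. The Atg7-KO livers had 19.95, 14.7 and 14.2 CPM and the S351A livers 12.6, 4.97 and 13.6 CPM, the latter from 11, 4 and 11 counts. All livers of both groups were above all cont. livers. The log2 fold change was 2.77 in Atg7-KO (SE 0.38, adjusted p = 0.000179, edgeR) and 2.11 in S351A (SE 0.46, adjusted p = 0.00525, edgeR). Without cont. liver 3, the library with the highest depth, these values were 3.33 and 2.67.

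Abcc5 (chr16:20331303-20426394, minus strand) read 10.8, 11.3 and 17.0 CPM in the cont. livers, 56.1, 67.8 and 58.1 CPM in the Atg7-KO livers, and 34.5, 34.8 and 60.5 CPM in the S351A livers. S351A liver 3 lay within the Atg7-KO range and the other 2 below it. Against cont. the change was 2.15 on the log2 scale in Atg7-KO (SE 0.26, adjusted p = 6.62e-05, edgeR) and 1.66 in S351A (SE 0.28, adjusted p = 0.00115, edgeR).

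Abcc6 was the pump with the highest level per length in cont. livers and the only 1 of the 9 called lower in Atg7-KO. The gene (chr7:45967555-46030302, minus strand) read 536, 613 and 477 CPM in the cont. livers, 119, 137 and 133 CPM in the Atg7-KO livers, and 106, 183 and 225 CPM in the S351A livers. The Atg7-KO livers were close together, whereas the S351A livers ran from below to above them. On the log2 scale it changed against cont. by -2.06 in Atg7-KO (SE 0.27, adjusted p = 0.000123, edgeR) and -1.67 in S351A (SE 0.27, adjusted p = 0.000923, edgeR). The summed level of 8 hepatocyte markers was also lower than in cont. This sum ran from 49815 to 113558 CPM in the cont. livers, 30792 to 38270 CPM in the Atg7-KO livers and 29211 to 45397 CPM in the S351A livers. Alb held the largest part of it, at 55496 CPM on average in cont. On the same scale Abcc2, Abcc3 and Abcb4 did not pass the test. The part of the markers' change in the fall of Abcc6 was not tested.

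Abcc3 (chr11:94343295-94392997, minus strand) was, with Abcc2 and Abcb4, among the pumps with the most counts and did not pass the test. It read 250, 324 and 270 CPM in the cont. livers, 253, 298 and 260 CPM in the Atg7-KO livers, and 176, 197 and 297 CPM in the S351A livers. The log2 fold change was -0.06 in Atg7-KO against cont. (95% interval -0.57 to 0.45, adjusted p = 0.870, edgeR), and -0.33 in S351A against cont. (-0.85 to 0.18, adjusted p = 0.320, edgeR). The first interval stays within the fold threshold of 1.5, which is 0.58 on the log2 scale, and the second reaches past it. This holds on the TMM scale, since by total library size the value in Atg7-KO was 0.47 (SE 0.25).

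At the canalicular face, Abcc2 (chr19:43782192-43840740, plus strand) had the narrowest intervals of the 9. It read 173, 174 and 219 CPM in the cont. livers, 185, 218 and 169 CPM in the Atg7-KO livers, and 173, 178 and 157 CPM in the S351A livers, so all groups overlapped on the TMM scale. The log2 fold change in Atg7-KO against cont. was 0.02 (95% interval -0.42 to 0.45, adjusted p = 0.959, edgeR) and in S351A against cont. -0.16 (-0.60 to 0.28, adjusted p = 0.603, edgeR). By total library size, under which the median of all genes was 0.51, the change in Atg7-KO was 0.56 (adjusted p = 0.0319, edgeR), just under the fold threshold, and the cont. livers (139 to 158 CPM) lay below all others. Abcb4 read 279, 415 and 219 CPM in the cont. livers, 232, 306 and 237 CPM in the Atg7-KO livers, and 201, 303 and 243 CPM in the S351A livers. In every group liver 2, a female, was the highest. The log2 fold change of Abcb4 was -0.24 in Atg7-KO (95% interval -0.82 to 0.34, adjusted p = 0.518, edgeR) and -0.29 in S351A (-0.88 to 0.30, adjusted p = 0.454, edgeR), both against cont.

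Abcg2 (chr6:58584523-58695676, plus strand) read 139, 57.8 and 148 CPM in the cont. livers, 63.8, 70.7 and 69.1 CPM in the Atg7-KO livers, and 79.3, 49.7 and 46.9 CPM in the S351A livers. The cont. livers split, with liver 2 below every Atg7-KO liver. That liver is the female of the group. Among males, the 2 cont. livers had 139 and 148 CPM against 63.8 CPM in the Atg7-KO male and 79.3 CPM in the S351A male. Among females, the cont. liver had 57.8 CPM, the Atg7-KO livers 70.7 and 69.1 CPM and the S351A livers 49.7 and 46.9 CPM. No test within a sex was made, since each sex holds only 1 or 2 livers of a group. Against cont. the log2 fold change was -0.76 in Atg7-KO (SE 0.32, adjusted p = 0.0755, edgeR), which was not called, and -0.97 in S351A (SE 0.33, adjusted p = 0.0466, edgeR), which was. With sex as a term the values were -0.44 (adjusted p = 0.249, edgeR) and -0.72 (adjusted p = 0.0845, edgeR), and neither was called. Without cont. liver 2 they were -1.09 (adjusted p = 0.00303, edgeR) and -1.30 (adjusted p = 0.00236, edgeR).

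**Figure D2:**
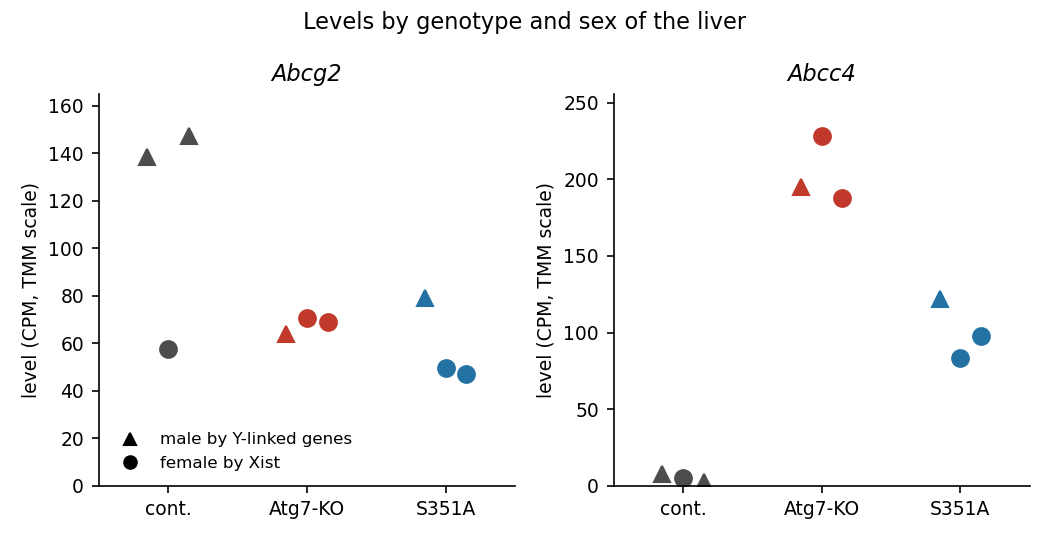
Levels of Abcg2 and Abcc4 in each liver (CPM on the TMM scale, linear axes from 0), with triangles for males and circles for females as read from Y-linked genes and Xist. For Abcg2 the 2 male cont. livers, at 139 and 148 CPM, stand above all other livers, whereas for Abcc4 both sexes rise in Atg7-KO.

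The genes for the P-glycoproteins lie side by side with Abcb4 on chromosome 5, in the order Abcb1a (chr5:8660077-8748575), Abcb1b (chr5:8798147-8866315) and Abcb4 (chr5:8893717-8959231), all on the plus strand. Their transcripts share sequence: 12.5% of the windows of 75 bases, the read length, in Abcb1a transcripts also occur in Abcb1b or Abcb4, and 8.13% of those in Abcb1b occur in Abcb1a or Abcb4. Of the windows in Abcb4, 1.30% occur in Abcb1a, Abcb1b or Gm35082. Reads from such windows are divided by estimate, so the split within the pair is uncertain. Abcb1a read 0, 4.58 and 2.42 CPM in the cont. livers, 24.6, 25.1 and 20.6 CPM in the Atg7-KO livers, and 20.7, 37.3 and 11.1 CPM in the S351A livers, with no overlap between cont. and the other groups. The log2 fold change was 3.17 in Atg7-KO (SE 0.50, adjusted p = 0.000454, edgeR) and 3.13 in S351A (SE 0.55, adjusted p = 0.00162, edgeR).

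Abcb1b read 11.4, 0.70 and 3.05 CPM in the cont. livers, 3.25, 6.10 and 3.66 CPM in the Atg7-KO livers, and 3.45, 1.24 and 0 CPM in the S351A livers, where every library was at or under 3 counts after rounding. It was removed by the filter on low counts, and no fold is given. The cont. liver with no count for Abcb1a was the one with the highest level of Abcb1b. With the pair summed, an analysis chosen after seeing the data, it read 11.4, 5.28 and 5.46 CPM in the cont. livers, 27.8, 31.2 and 24.3 CPM in the Atg7-KO livers, and 24.1, 38.5 and 11.1 CPM in the S351A livers. The summed pair was higher in Atg7-KO by 4.14-fold (log2 2.05, SE 0.38, adjusted p = 0.00110, edgeR) against 8.98-fold for Abcb1a alone, and higher in S351A by 3.65-fold (log2 1.87, SE 0.42, adjusted p = 0.00604, edgeR) against 8.77-fold. As a pair, S351A liver 3 fell below cont. liver 1.

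**Figure D3:**
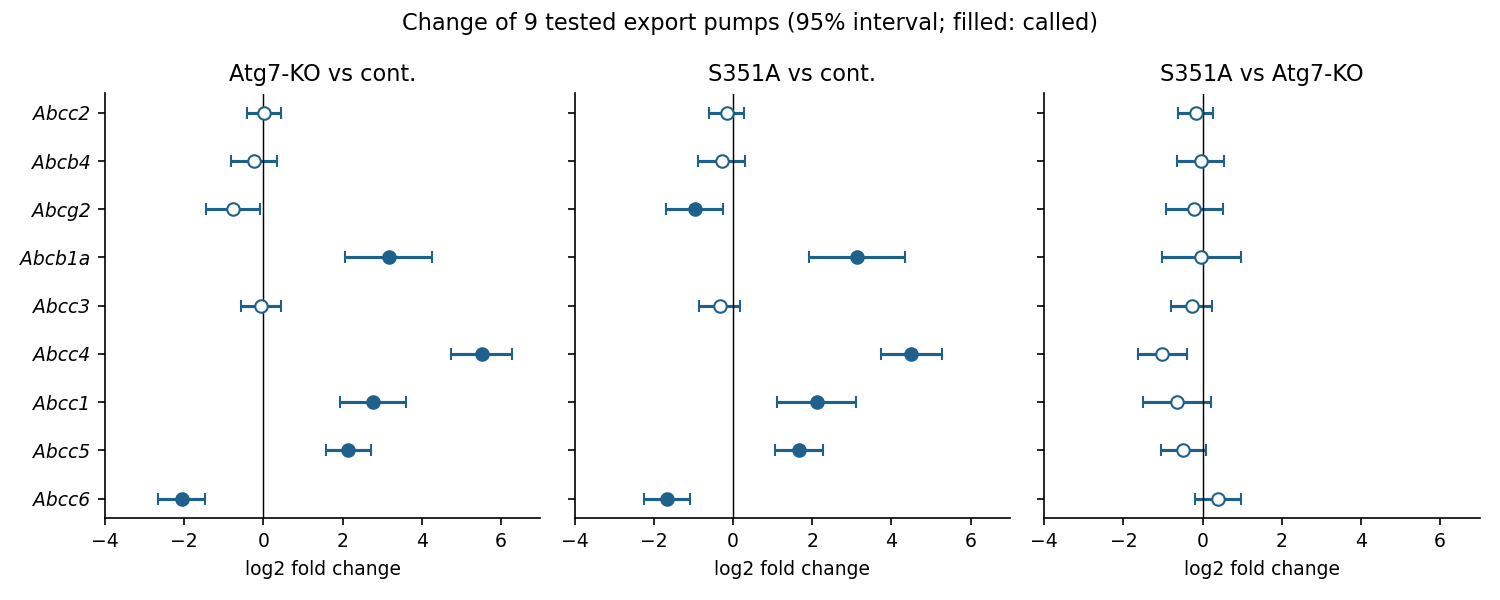
Log2 fold change of the 9 tested pumps in 3 comparisons, with 95% intervals from edgeR and filled points for calls (adjusted p under 0.05 and fold change above 1.5). Abcc4, Abcb1a, Abcc1 and Abcc5 lie right of 0 and Abcc6 left of 0 in both comparisons with cont., and no point is filled between S351A and Atg7-KO.

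The test covered 11199 genes, of which many changed. In Atg7-KO the 4 pumps called higher were above cont. in every liver, a separation found in 26.7% of genes, and Abcc6 was below it in every liver, as were 24.9%. In S351A the same 4 were above cont. in every liver and Abcc6 below it, as were 19.6% and 18.4% of genes. The balance of all genes moved with the scaling: by TMM, 2226 rose and 2027 fell in Atg7-KO against cont., and by total library size 4284 rose and 801 fell, under which the pumps still had 4 called higher and 1 lower. Any difference among the 3 groups was called for 5 pumps, and for 35.1% of all genes. The median log2 fold change of the 9 pumps was 0.02 in Atg7-KO against cont., and that of all genes -0.03. By total library size they were 0.56 and 0.51.

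The p62 allele was examined by comparing S351A with Atg7-KO. In this comparison 0 of the 9 pumps were called by edgeR, as by DESeq2 and limma-voom, and 1 had an unadjusted p under 0.05, as did 739 of all 11199 genes. Of all genes, 0.00893% were called by edgeR, which is 1 gene, while DESeq2 called 40 (23 higher and 17 lower) and limma-voom 0. The pump with the unadjusted p was Abcc4, at -1.01 on the log2 scale (95% interval -1.63 to -0.40, unadjusted p = 0.00364, adjusted p = 0.468, edgeR), or 0.495 of its level in Atg7-KO, lower in 3 of 3 livers. When genes of low count were not filtered, it was -1.07 with an adjusted p of 0.0357 by edgeR, the only setting of 19 that called it. This setting called 98 of 19081 genes, against 1 of 11199 with the filter. The 19 settings spanned a range of adjusted p for Abcc4 from 0.0357 to 1.00. Abcc1 was the other pump whose livers did not overlap between these groups (-0.65, 95% interval -1.51 to 0.20, adjusted p = 0.838, edgeR), from 4 to 11 counts a library in S351A, with Abcc4 from 67 to 106. Of all tested genes, 9.23% were lower in every S351A liver and 7.67% were higher in every one, as no pump was.

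For the other pumps the livers of S351A and Atg7-KO overlapped. Abcc5 had a log2 fold change of -0.49 (95% interval -1.06 to 0.08, adjusted p = 0.823, edgeR). Abcc6 had 0.40 (-0.18 to 0.98, adjusted p = 0.851, edgeR). Abcb1a had -0.03, with an interval of -1.03 to 0.96, the widest of the 9. Abcc2 (-0.17), Abcc3 (-0.27), Abcb4 (-0.05) and Abcg2 (-0.21) had intervals that reached from -0.93 at the lowest to 0.54 at the highest. Of the 9 pumps, only Abcc4 had an interval without 0.

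Levels of different genes can be compared per kilobase of exon, and by this measure the order of the pumps differed between groups. In cont. livers the order was Abcc6 (94.8 ± 11.9 CPM per kb, SD, n = 3), Abcc3 (49.4 ± 6.71), Abcb4 (32.5 ± 10.7), Abcc2 (22.1 ± 3.05) and Abcg2 (14.1 ± 6.07), followed by Abcc5 (1.22 ± 0.32), Abcc4 (0.81 ± 0.39), Abcb1b (0.63 ± 0.71), Abcb1a (0.43 ± 0.42) and Abcc1 (0.13 ± 0.06). The ranges of Abcc3 and Abcb4 overlapped, as did those of Abcb4 and Abcc2, and from Abcc5 down each range overlapped the next. In Atg7-KO livers Abcc4 was number 2 (31.9 ± 3.40 CPM per kb), behind Abcc3 (47.4 ± 4.24) and overlapping Abcb4 (27.5 ± 4.42), while Abcc6 was number 4 (22.7 ± 1.63), overlapping Abcc2 (22.4 ± 2.90). Abcg2 (8.32 ± 0.44), Abcc5 (5.68 ± 0.59), Abcb1a (4.28 ± 0.45), Abcc1 (1.08 ± 0.21) and Abcb1b (0.54 ± 0.19) followed, each apart from its neighbours. In S351A livers Abcc3 was first (39.2 ± 11.4 CPM per kb), overlapping Abcc6 (29.9 ± 10.5), and Abcc4 number 5 (15.8 ± 3.05), overlapping Abcc2 above it (19.8 ± 1.29). With the longest transcript as the length, Abcb4 was at 63.3 CPM per kb in Atg7-KO and ranked first there and in S351A, and second in cont., so its place rests on the length used.

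The make-up of the pump mRNA within a liver does not depend on how libraries are scaled, but it does depend on the length used for each gene. Abcc4 held 0.20% to 0.57% of the summed level per kb of the 10 genes in cont. livers, 18.1% to 18.9% in Atg7-KO livers and 8.72% to 14.9% in S351A livers. Abcc6 held 41.5% to 45.0%, 12.5% to 14.3% and 14.4% to 23.7%, in the same order. Shares of Abcc3 were 21.1% to 23.8% in cont. and 27.3% to 28.1% in Atg7-KO, and those of Abcc2 were 8.54% to 12.7% and 12.2% to 13.5%. For Abcc4 no share of a group overlapped with another group's. Summed over all 10 genes, the level was 201 to 239 CPM per kb in cont., 161 to 192 in Atg7-KO and 128 to 165 in S351A on the TMM scale. This order, unlike the shares, rests on the scaling, since by total library size the sums were 146 to 192, 184 to 215 and 142 to 189.

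**Figure D4:**
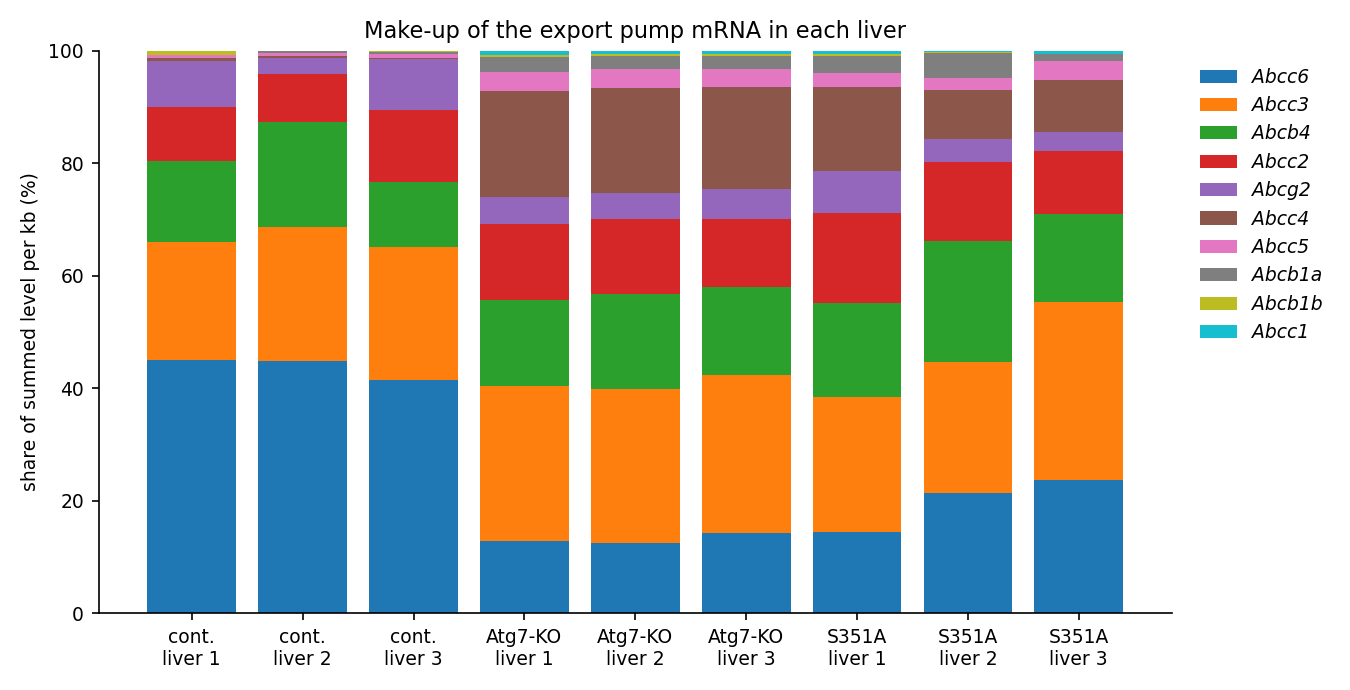
Share of each pump gene in the summed level per kb of exon of the 10 genes (percent, stacked to 100), with a bar for each liver. Abcc6 takes 41.5% to 45.0% of the bar in cont. and 12.5% to 14.3% in Atg7-KO, and Abcc4 goes from 0.20% to 0.57% in cont. to 18.1% to 18.9% in Atg7-KO.

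Among the 38 other ABC transporter genes in a fixed list, 32 were tested, and against cont. 6 rose and 9 fell in Atg7-KO, 5 rose and 5 fell in S351A, and 0 were called between S351A and Atg7-KO by edgeR, DESeq2 or limma-voom, where 4 had an unadjusted p under 0.05 by edgeR. Of all genes, 19.9% rose and 18.1% fell in Atg7-KO and 15.6% and 13.0% in S351A, so the shares of this list that rose were near those of all genes. By total library size 8 rose and 3 fell in Atg7-KO, beside 4284 and 801 of all 11199 genes, so the balance of this list rests on the scaling. Cftr, the chloride channel of bile duct cells, had 0, 0 and 0.18 CPM in the cont. livers and 9.05, 7.18 and 6.86 CPM in the Atg7-KO livers, with a mean at least 7.14-fold higher than the mean floor of the cont. libraries. Its level in S351A, 3.45 to 3.73 CPM, was at the floor of those libraries. Abcc12 read 0, 0 and 0.45 CPM in the cont. livers and 11.8, 17.9 and 5.95 CPM in the Atg7-KO livers. The bile salt export pump Abcb11, which sits beside Abcc2 and Abcb4 in the canalicular membrane, fell. It had 1233, 1129 and 1330 CPM in the cont. livers, 271, 276 and 252 CPM in the Atg7-KO livers, and 319, 386 and 523 CPM in the S351A livers. Its log2 fold change against cont. was -2.21 in Atg7-KO (SE 0.24, adjusted p = 3.57e-05, edgeR) and -1.59 in S351A (SE 0.24, adjusted p = 0.000584, edgeR), and between S351A and Atg7-KO 0.62 (SE 0.23, adjusted p = 0.696, edgeR).

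**Figure D5:**
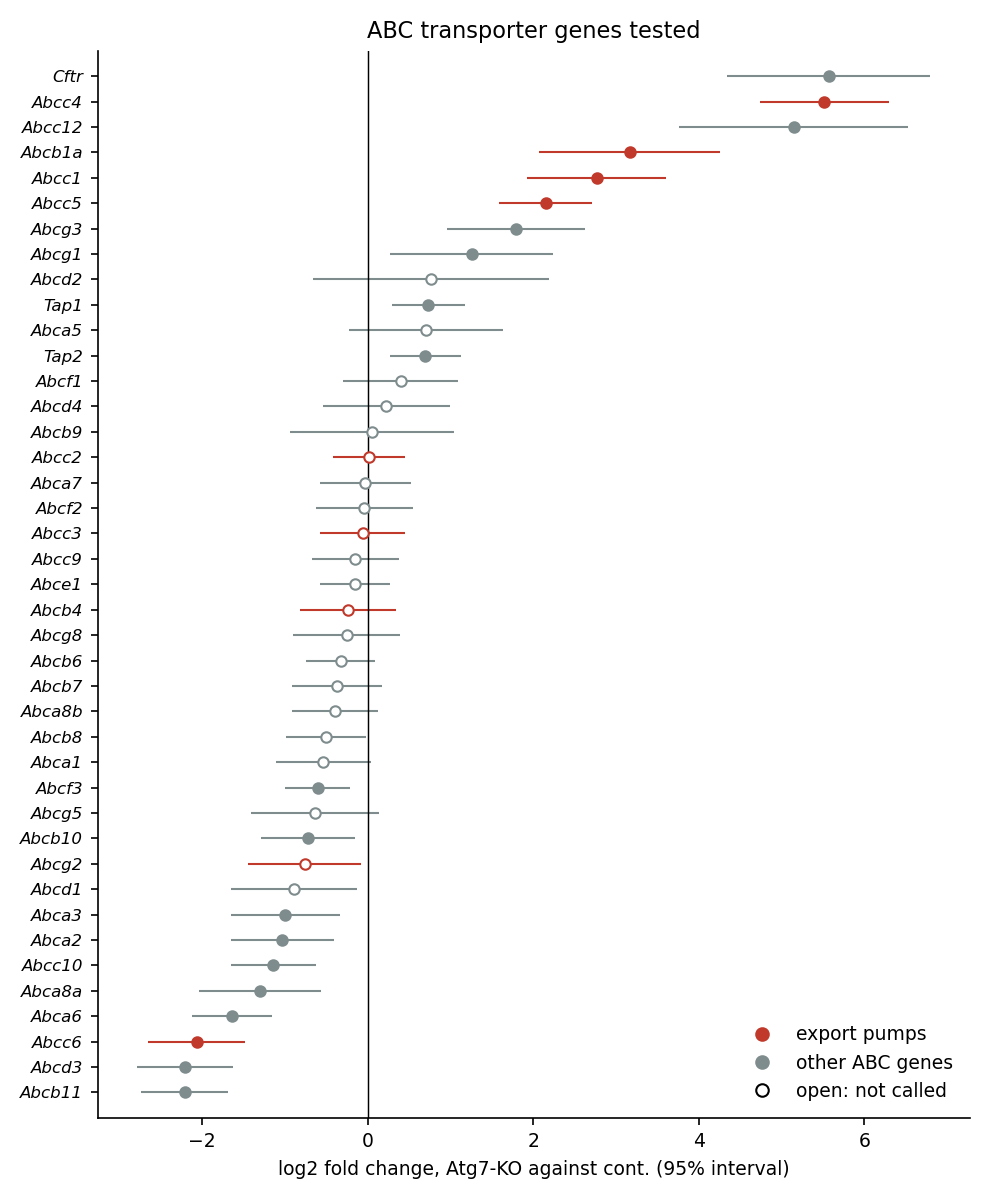
Log2 fold change with 95% interval in Atg7-KO against cont. for the 9 tested pumps (red) and 32 other ABC transporter genes (grey), ordered by value, with open points for genes not called. Abcc4 lies with Cftr and Abcc12 at the upper end, and Abcc6 with Abcd3 and Abcb11 at the lower end. The fitted values of Cftr and Abcc12 rest on cont. libraries at or near 0 counts and are no bounds.

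Of the 7 other genes of hepatic export, 5 were tested, and 2 were lower in both comparisons with cont., namely Abcb11 and Slc47a1, an exporter of organic cations (423 CPM in the cont. livers and 102 CPM in the Atg7-KO livers on average, log2 fold change -2.05, SE 0.38, adjusted p = 0.00119, edgeR). Of all genes, 18.1% were lower in Atg7-KO and 13.0% in S351A. In S351A the change of Slc47a1 was -1.37 (adjusted p = 0.0171, edgeR), and its call was lost under 5 of 19 alternatives. These were total library size (-0.88), the same with the 20 most abundant genes left out (-0.97), the 6 compared libraries alone (-1.29), and S351A liver 1 or 2 left out (-1.12 each), while without S351A liver 3 the change was -2.11. Abcg5 and Abcg8, which form the sterol pump of the canalicular membrane, had log2 fold changes of -0.63 and -0.25 in Atg7-KO, and Atp8b1, a canalicular lipid flippase, had -0.44, none of them called. Abcg5 was called lower with the replicate block (-0.68, adjusted p = 0.0477, edgeR) or a sex term (-0.97, adjusted p = 0.00635, edgeR), and Atp8b1 without cont. liver 2 (-0.69, adjusted p = 0.0484, edgeR). Abcg8 and Atp8b1 turned positive by total library size. Slc51a and Slc51b, subunits of a basolateral bile acid exporter, had too few counts to be tested.

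All 12 regulators of transport genes were tested, and 5 were called lower in each comparison with cont. by edgeR, beside 18.1% of all genes in Atg7-KO and 13.0% in S351A. Their median change was -0.70 in Atg7-KO on the log2 scale, against -0.03 for all genes. By total library size 3 rose and 2 fell in Atg7-KO, beside 4284 and 801 of all 11199 genes, with a median of -0.17 against 0.51 for all genes. In S351A 1 rose and 2 fell under that scaling, beside 3498 and 512 of all genes. When the 20 most abundant genes were also left out, 0 rose and 3 fell, beside 3040 and 638 of all genes. The largest changes in Atg7-KO were in Nr1i3, the receptor CAR (-2.45, SE 0.37, adjusted p = 0.000347, edgeR), Nr1h4, the bile acid receptor FXR (-1.61, SE 0.28, adjusted p = 0.000853, edgeR), and Nr0b2, a target and partner of FXR known as SHP (-1.44, SE 0.38, adjusted p = 0.0105, edgeR). The call of Nr0b2 was lost without Atg7-KO liver 1 (adjusted p = 0.0601, edgeR) and by total library size (-0.89, adjusted p = 0.0657, edgeR). Of 7 genes that anchor or traffic canalicular proteins, 2 were higher and 1 lower in both comparisons with cont., near the shares of all genes (19.9% and 18.1% in Atg7-KO, 15.6% and 13.0% in S351A). These were Ezr (log2 fold change 2.12 in Atg7-KO) and Msn (1.64), which link membranes to actin, and Slc9a3r1 (-1.33), a scaffold with PDZ domains. The call of Slc9a3r1 in S351A (-0.92, adjusted p = 0.0113, edgeR) was lost under 4 of 19 alternatives, namely these 2 scalings (-0.42 and -0.52), the 6 compared libraries alone (-0.85) and S351A liver 1 left out (-0.83). By total library size 3 genes of this list were higher in Atg7-KO, beside 4284 of all 11199 genes. Sqstm1, an NRF2 target that the study measured, stood among the regulators. It was not called higher in Atg7-KO by edgeR (423 CPM in the cont. livers and 550 CPM in the Atg7-KO livers on average). A list of further NRF2 targets was taken from those the study had measured in these livers and is thus no independent evidence. Of its 5 genes, 4 were higher in Atg7-KO (19.9% of all genes) and 3 in S351A (15.6%), both against cont., with Nqo1 at 4.46, Pgd at 3.25 and Gstm1 at 1.91 on the log2 scale in Atg7-KO. Their median in S351A against Atg7-KO was -0.91, with 0 of the 5 called by edgeR, 4 at an unadjusted p under 0.05, 2 called lower by DESeq2 and 0 by limma-voom. Of all 11199 genes, 739 had such a p, and DESeq2 called 17 lower.

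The summed markers of some other liver cells also differed between the groups. The summed level of 8 cholangiocyte markers was at most 125 CPM in the cont. livers, 868 to 1271 CPM in the Atg7-KO livers and 786 to 1275 CPM in the S351A livers. Stellate cell markers ran from 292 to 594, 1321 to 1780 and 1203 to 1719 CPM, macrophage markers from 243 to 400, 453 to 569 and 384 to 386 CPM, and lymphocyte markers from 8.26 to 22.9, 51.0 to 69.6 and 42.0 to 43.5 CPM, in the same order of groups. Of the 10 macrophage markers, 6 were called higher in Atg7-KO and 5 in S351A, both against cont., beside 19.9% and 15.6% of all genes. Clec4f, a Kupffer cell marker with the highest level of the 10, was not called (143, 128 and 93.5 CPM on average). The macrophage sums of S351A lay within the range of cont. Of the 8 lymphocyte markers 2 were tested, Cd8a and Ptprc, a gene of all leukocytes that held the largest part of the sum (9.06, 38.6 and 23.8 CPM on average). The summed level of 8 endothelial markers overlapped between all groups, at 242 to 413 CPM, but single markers moved in both directions. Against cont., 1 was called higher and 3 lower in Atg7-KO, and 1 higher and 0 lower in S351A. Of all genes, 19.9% were higher and 18.1% lower in Atg7-KO, and 15.6% and 13.0% in S351A. Lyve1 averaged 16.9, 68.0 and 41.7 CPM and Stab2 67.3, 33.1 and 40.3 CPM, in the same order of groups. The part of any of these other liver cells in the rise of Abcc1, Abcc4, Abcc5 and Abcb1a was not tested. The genes whose levels followed Abcc4 most closely over the 9 livers were Col3a1, a collagen (Pearson's r = 0.994), Dapk2 (0.993) and Dapp1 (0.993), as a description of log2 CPM over livers that share 3 genotypes. Col3a1 had 27.8 CPM in the cont. livers, 345 CPM in the Atg7-KO livers and 225 CPM in the S351A livers on average.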

How the data were processed

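Poly(A) RNA of 9 mouse livers (3 in each group) was read as single-end reads of 75 bases. The authors trimmed reads with Trim Galore, aligned them with STAR (build mm10) and quantified genes by RSEM, as the submitters' processing notes list. Versions, annotation and strand setting are not given in the sources used here, so reads of a gene and an antisense partner cannot be told apart. The deposited table holds expected counts (estimated reads per gene, not scaled between libraries), which were rounded. Columns were tied to livers by their labels, and p-values measure the spread between these mice. No pair of livers of 1 group agreed within counting error (chi-square per gene 2.22 to 103).

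Counts were analysed with edgeR 4.0.16 (R 4.3.3). Genes were kept by filterByExpr (minimum count 10, total 15), libraries scaled by TMM, and 1 quasi-likelihood model fitted to all 9 libraries. Genes were called at an adjusted p under 0.05 (Benjamini-Hochberg over 11199 genes) and a fold change above 1.5, or, for any difference among the 3 groups, at the adjusted p alone. The SE was taken from the F statistic. Alternatives used DESeq2 1.42.0, limma-voom (limma 3.58.1) and other scalings, filters and terms. Positions and lengths are from GENCODE M21, and promoters from RefSeq.

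The members and gene lists were chosen with earlier results of these data known. Besides all members, Atg7 and the genes of hepatic export, the rule named from the other lists the 3 called genes with the largest change in Atg7-KO and at least 5 CPM, and the 3 genes whose log2 CPM (prior count 2) correlated best with the pump of smallest p.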

Additional observations from a re-analysis of the deposited data

How the results depend on the processing

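The calls of Abcc4, Abcc5, Abcc6, Abcb1a and Abcc1 against cont. held under each of the alternatives that could test them. Requiring 10 counts in every library removed Abcb1a and Abcc1, and Abcg2 lost its call in S351A. This left 3 pumps called in Atg7-KO against cont., 3 in S351A against cont. and 3 for any difference. Of all 6887 genes kept by this filter, 2504, 1941 and 2373 were called, in the same order. No filter added Abcc4 between S351A and Atg7-KO (1 call), where 98 of 19081 genes were called. Leaving out each library in turn gave 5 to 6 calls in Atg7-KO against cont., 5 to 6 in S351A against cont., 5 to 6 for any difference and 0 between S351A and Atg7-KO. All genes gave 3238 to 4530, 2098 to 3572, 3127 to 4381 and 0 to 3 calls, in the same order, of 11487 to 11852 tested. Over all 19 alternatives the adjusted p of Abcg2 in S351A against cont. ran from 0.00236 to 0.280 by edgeR, DESeq2 or limma-voom. Abcg2 lost its call there under 13 of the 19. Among them were the sex term and, with adjusted p by edgeR, cont. liver 1 left out (0.0990), cont. liver 3 left out (0.139) and S351A liver 2 left out (0.142). In Atg7-KO Abcg2 gained a call with no filter (-0.81) and without cont. liver 2 (-1.09). The cause was not tested.

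Total library size moved the median of all genes by 0.54 in Atg7-KO and 0.49 in S351A, both against cont. on the log2 scale, and size without the 20 genes with most counts by 0.43 and 0.39. Under these 2 scalings some uncalled pumps reversed, with total size first: in Atg7-KO, Abcc3 to 0.47 and 0.37 and Abcb4 to 0.28 and 0.18; in S351A, Abcc2 to 0.33 and 0.23, Abcc3 to 0.15 and 0.058, and Abcb4 to 0.18 and 0.089. Abcc2 in Atg7-KO moved from 0.02 to 0.56 and 0.45 without reversing. Against cont., Atg7-KO values reversed for Abcc2 with no filter (-0.034) and for Abcc3 with 10 counts in every library (0.026). With 1 library left out, values ran from -0.095 to 0.13 for Abcc2, -0.15 to 0.044 for Abcc3 and -0.43 to 0.045 for Abcb4 in Atg7-KO against cont., and from -0.56 to 0.29 for Abcb1a and -0.21 to 0.083 for Abcb4 in S351A against Atg7-KO, where Ezr, no pump, ran from -0.12 to 0.35 and Slc47a1 from -0.052 to 0.96. None of these was called. Among the genes that are not pumps, Abcg8 reversed to 0.27 and 0.17 in Atg7-KO under the 2 scalings and Atp8b1 to 0.11 under total library size, the fall of Atg7 lost its call under both (-0.21 and -0.31), and that of Nr0b2 under total library size (-0.89).

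With replicate number as a block, 5, 0 and 6 pumps were called in Atg7-KO against cont., S351A against Atg7-KO and S351A against cont., and 5 for any difference, as without it. Of all 11199 genes, 4313, 1 and 3406 were called with the block, in the same order, and 4075 for any difference. Over 9 pairs of livers with the same number, deviations from group means correlated at -0.041 to 0.31, with 5 pairs over 0.1, against 2 of 18 pairs with different numbers. Not every pair passed 0.1, so they were not taken as paired. The livers numbered 1 were all male and those numbered 2 all female, so number and sex overlap. Depth limits Abcb1b and Abcc1 most, with 0 to 11 counts in the S351A libraries.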
